A study of Mus musculus with 8 samples.

Results

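Aldh1l1 and 7 further enzymes of folate-dependent one-carbon metabolism were followed in astrocytes sorted from the spinal cord of mice with and without the potassium channel Kir4.1, encoded by Kcnj10. The 8 genes, Aldh1l1, Aldh1l2, Mthfd1, Mthfd1l, Mthfd2, Shmt1, Shmt2 and Tyms, were taken by name from a list set by pathway membership, and all 8 were found among the 39179 gene identifiers of the count tables. The question was whether Aldh1l1 rose alone or together with its pathway when Kir4.1 was lost. All 8 genes passed the filter on low counts that left 14757 genes for testing.

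The series held 8 RNA-seq libraries, 4 per genotype, from spinal cord of mixed Swiss-Webster mice of postnatal day 12 to 14. Control animals were cre-negative and are labelled wild-type (libraries S1, S2, S6 and S7). Conditional knockout (cKO) animals had floxed Kir4.1 alleles and Aldh1l1-cre, a recombinase driven by regulatory elements of Aldh1l1 (libraries S3, S4, S5 and S8). Animals of both genotypes carried the Aldh1l1-GFP reporter, and the cells were collected by flow sorting for GFP after papain dissociation. Whether the control animals carried floxed alleles is not given in the sources used here. The series describes the libraries as biological replicates. Kcnj10 ranged from 1181 to 2306 CPM (read counts per gene scaled to a common library size) in control libraries and from 27.2 to 37.6 CPM in cKO libraries, with a log2 fold change of −5.74 (SE 0.25, adjusted p = 7.52e-08, edgeR). Gene reads numbered 13892736 to 25065686 per library. Of these, 37.8% to 44.3% in control and 32.6% to 43.6% in cKO fell in transcripts like ribosomal RNA. Of 16 astrocyte markers all 16 were tested, with summed levels of 29663 to 48396 CPM in controls and 34526 to 42863 CPM in cKO, so the sorted cells carried the markers of their label in every library.

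One-carbon metabolism moves single carbon units on the cofactor tetrahydrofolate. Serine is the main donor, and the units are used to make thymidylate and purines and to regenerate methionine. The pathway runs in parallel in the cytosol and in mitochondria, with separate enzymes in each compartment, and formate links the compartments. ALDH1L1 is the cytosolic formyltetrahydrofolate dehydrogenase, which oxidises the formyl unit to carbon dioxide and returns free tetrahydrofolate. In the nervous system it is known as a general astrocyte marker, and its regulatory elements are widely used to direct transgenes to astrocytes.

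The stretches of DNA just upstream of 3 of these genes are shown as the sequence context of the 3 most abundant enzymes, and their part in the RNA levels was not tested. Aldh1l1 is the gene that changed and the source of the elements named in both transgenes, while Mthfd1 and Shmt2 are the other abundant enzymes. Each is the 250 bases before the RefSeq start on GRCm38.p6, written 5′ to 3′ on the gene's strand, with matches to the CCAAT box (letters CCAAT, searched on both strands) in capitals. The Aldh1l1 stretch lies on the plus strand at chr6:90550543-90550792, the Mthfd1 stretch on the plus strand at chr12:76254982-76255231, and the Shmt2 stretch on the minus strand at chr10:127522445-127522694.
Aldh1l1: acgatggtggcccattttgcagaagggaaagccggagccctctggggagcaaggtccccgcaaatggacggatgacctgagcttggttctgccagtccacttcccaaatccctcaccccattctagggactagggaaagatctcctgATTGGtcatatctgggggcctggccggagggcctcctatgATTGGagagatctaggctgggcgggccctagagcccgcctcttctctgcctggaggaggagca
Mthfd1: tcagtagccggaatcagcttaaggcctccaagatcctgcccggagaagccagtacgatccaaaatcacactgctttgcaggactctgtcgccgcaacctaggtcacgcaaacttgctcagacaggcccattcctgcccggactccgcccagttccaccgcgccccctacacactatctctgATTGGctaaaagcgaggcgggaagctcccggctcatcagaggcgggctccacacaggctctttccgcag
Shmt2: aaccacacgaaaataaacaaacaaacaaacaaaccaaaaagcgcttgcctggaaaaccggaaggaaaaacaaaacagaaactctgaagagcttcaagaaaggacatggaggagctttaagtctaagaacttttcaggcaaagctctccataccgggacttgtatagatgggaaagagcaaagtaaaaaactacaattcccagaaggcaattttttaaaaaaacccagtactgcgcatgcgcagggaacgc
The Aldh1l1 stretch held 2 CCAAT matches, the nearer beginning 63 bases before the start. The Mthfd1 stretch held 1 and the Shmt2 stretch held none. RefSeq promoters were found for 7 of the 8 genes, all but Aldh1l2, and 4 of these 7 held a CCAAT match (Aldh1l1, Mthfd1, Mthfd2 and Shmt1). Among 32817 promoter stretches of the same length 33.8% held one. A GC box (GGGCGG on either strand) was present in 5 of 7 against 32.7% of all stretches. The amino acid response element bound by ATF4, searched as TGATGNAAT on both strands, had no match in the 7 stretches and was present in 0.817% of all. The RefSeq start of Aldh1l1 used here lies inside the longer gene model of GENCODE, which begins at 90486427. A match is a run of letters and not a measured binding site.

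Aldh1l1 (ENSMUSG00000030088) occupies 90486427 to 90600203 of chromosome 6 (GRCm38, plus strand) and has 25 merged exons. It rose about 2-fold in cKO. Values by library are given here and throughout with S1, S2, S6, S7 as the order of the controls and S3, S4, S5, S8 as that of the cKO. Aldh1l1 was at 151, 135, 131 and 139 CPM in control and at 284, 248, 350 and 244 CPM in cKO. The lowest cKO library stood well above the highest control library, and cKO S5 was the highest of all. Mean levels were 139 CPM ± 8.65 (SD, n = 4) for control and 282 CPM ± 48.8 (SD, n = 4) for cKO. On the log2 scale the cKO level was higher by 1.01 (SE 0.16, 95% interval 0.67 to 1.36), and the quasi-likelihood fit of edgeR gave an adjusted p of 0.0179 over all tested genes. Of the 8 enzymes 1 passed the threshold of 0.05 as higher and 0 as lower, where 0.318% of all tested genes passed it, 0.203% as higher and 0.115% as lower in cKO. It ranked 19 of 14757 by p, although 28 called genes had a larger rise. Control libraries were close together: their coefficient of variation was 6.21%, against a median of 16.8% among 1314 genes with a control mean of 70 to 280 CPM, of which 62 varied less. The cells had been sorted on the Aldh1l1-GFP reporter. The part of that sorting in the spread and level of Aldh1l1 was not tested.

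The rise of Aldh1l1 kept its size in every fit that left out 1 library, with log2 fold changes between 0.90 and 1.08, but the call did not. By edgeR the adjusted p was 0.0655 without control S2, 0.0705 without control S6 and 0.0618 without cKO S4. Without any of the other 5 libraries it was between 0.0353 and 0.0469. The deposited FPKM values gave log2 fold changes of 0.97 (adjusted p = 0.136, limma) at a pseudocount of 0.1 and 0.96 (adjusted p = 0.13, limma) at 1. In the authors' deposited table it was 0.96 with an adjusted p of 8.39e-07, where 2.87% of the 12314 genes with such a p were under 0.05, and 0 of the other 7 enzymes. The genomic DNA held by the Aldh1l1 transgenes is not given in the sources used here. Reads of the gene itself and of any Aldh1l1 exons that the cre transgene, present in cKO only, may hold cannot be told apart.

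**Figure D1:**
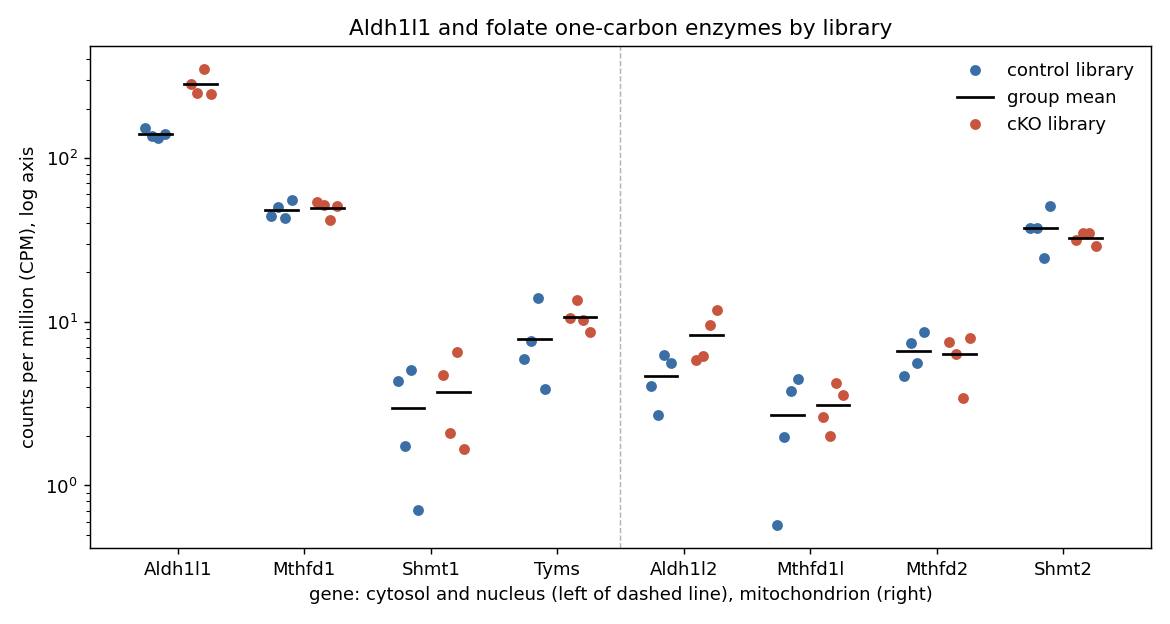
CPM of the 8 enzymes in each library on a log axis, control libraries in blue and cKO libraries in red, with a bar at each group mean. Aldh1l1 is the gene whose groups do not overlap (131 to 151 CPM against 244 to 350 CPM), while Shmt1, Mthfd1l and Tyms spread widely within the control group.

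Levels of different genes were compared per kilobase of merged exons. In control libraries Aldh1l1 was the most abundant of the 8, at 30.9 CPM per kb ± 1.92 (SD, n = 4). Shmt2 followed at 12.1 ± 3.46 and Mthfd1 at 10.8 ± 1.30 CPM per kb (SD, n = 4 each), with overlapping ranges between the pair. The other 5 were lower again: Mthfd2 was at 1.89 ± 0.51 CPM per kb, Tyms at 1.29 ± 0.71, Shmt1 at 0.765 ± 0.534, Aldh1l2 at 0.620 ± 0.213 and Mthfd1l at 0.608 ± 0.398 (SD, n = 4 each). Each of these 5 overlapped its neighbours in the order, whereas the steps from Aldh1l1 to Shmt2 and from Mthfd1 to Mthfd2 separated all 4 control libraries. The per-length level of Aldh1l1 stood above that of 96.2% of all tested genes in control.

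As a share of the summed per-length level of the 8 enzymes, Aldh1l1 made up 56.3%, 51.8%, 54.3% and 47.7% in control and 68.7%, 65.7%, 74.1% and 66.5% in cKO. The sum of the other 7 was 28.1 CPM per kb ± 4.12 (SD, n = 4) in control and 27.9 ± 0.835 (SD, n = 4) in cKO. Thus the larger share in cKO went with a higher Aldh1l1 level and a sum of the others that was nearly the same. Most of that sum was Shmt2, at 12.1 CPM per kb in control and 10.4 in cKO, and Mthfd1, at 10.8 and 11.1. The sum therefore says little of the scarcer enzymes. These shares are given as a description, without a test.

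Mthfd1 (ENSMUSG00000021048, chromosome 12, plus strand, 76255298 to 76319803) encodes the cytosolic enzyme that interconverts the formyl, methenyl and methylene forms of the cofactor and makes the substrate of ALDH1L1. It was at 43.9, 49.8, 43.1 and 55.5 CPM in control and at 53.5, 51.8, 41.7 and 50.9 CPM in cKO. The groups overlapped almost entirely. Its change on the log2 scale was 0.040 with a 95% interval of −0.33 to 0.41 (adjusted p = 0.963, edgeR), so that a change of the size seen in Aldh1l1 lay outside the interval. Mthfd1 was also the steadiest of the other 7 between control libraries.

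Shmt1 (ENSMUSG00000020534, chromosome 11, minus strand, 60788104 to 60811718) encodes the cytosolic serine hydroxymethyltransferase, which passes the carbon of serine to tetrahydrofolate. Its counts were low, 15 to 114 per library. It was at 4.37, 1.75, 5.05 and 0.711 CPM in control and at 4.70, 2.09, 6.50 and 1.67 CPM in cKO. Both groups held a pair of higher and a pair of lower libraries. Its log2 fold change of 0.33 had a 95% interval of −1.13 to 1.79, which held both no change and the rise of Aldh1l1 (adjusted p = 0.914, edgeR). Shmt1 shares 184 exon bases with Smcr8 on the opposite strand, and whether the counting used strand is not given in the sources used here.

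Tyms (ENSMUSG00000025747, chromosome 5, minus strand, 30058202 to 30073617) encodes thymidylate synthase, which uses the methylene form to make the thymidine nucleotide for DNA synthesis. It was at 5.89, 7.64, 13.95 and 3.88 CPM in control and at 10.6, 13.5, 10.2 and 8.60 CPM in cKO. Control S6 alone was higher than all cKO libraries, and the other 3 controls were lower than all of them. For Tyms the log2 fold change was 0.45 with a 95% interval of −0.40 to 1.30 (adjusted p = 0.761, edgeR). It was 0.89 without control S6, 0.23 without control S7 and 0.92 on FPKM with a pseudocount of 0.1. Genes of S phase and proliferation did not share that sign. Of 17 tested, 15 had a negative and 2 a positive log2 fold change with a median of −0.44, and 0 passed the threshold by edgeR, where the median over all genes tested was −0.017. At an unadjusted p under 0.05 edgeR gave 2 of them, Ccna2 (−1.87) and Mki67 (−1.52), and DESeq2 called 0. Ccna2 and Mki67, which mark dividing cells, ranged from 1.38 to 16.2 CPM and from 4.06 to 40.6 CPM in control and from 0.513 to 3.51 CPM and from 2.0 to 10.8 CPM in cKO, with control S7 the highest for both. Without control S7 their log2 fold changes were −1.04 and −0.61. Mcm7, of the replicative helicase, had a log2 fold change of 0.60 (adjusted p = 0.671, edgeR).

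Aldh1l2 (ENSMUSG00000020256, chromosome 10, minus strand, 83487450 to 83534140) encodes the mitochondrial counterpart of ALDH1L1, with the same reaction. It was at 4.06, 2.69, 6.26 and 5.59 CPM in control and at 5.87, 6.21, 9.52 and 11.7 CPM in cKO. All 4 cKO libraries lay above the control median, and 2 of them above every control library. The log2 fold change was 0.84 with a 95% interval of −0.044 to 1.72. It did not pass the threshold (unadjusted p = 0.0609, adjusted p = 0.529, edgeR), and the interval held both no change and the change of Aldh1l1. Aldh1l2 shares 1056 exon bases with D10Wsu102e on the opposite strand, so its reads are uncertain to that extent. In the authors' deposited table its log2 fold change was 0.66 with an unadjusted p of 0.0316 and an adjusted p of 0.291. That fold change is smaller than the group means of the same table alone would give.

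Shmt2 (ENSMUSG00000025403, chromosome 10, minus strand, 127517123 to 127522444) encodes the mitochondrial serine hydroxymethyltransferase. It was at 37.4, 37.5, 24.4 and 50.8 CPM in control and at 31.4, 34.7, 34.8 and 29.0 CPM in cKO. The cKO libraries all lay inside the control range. Shmt2 had a log2 fold change of −0.21 with a 95% interval of −0.70 to 0.28 (adjusted p = 0.816, edgeR), an interval that did not reach the rise of Aldh1l1.

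Mthfd2 (ENSMUSG00000005667, chromosome 6, minus strand, 83305691 to 83325908) encodes the mitochondrial dehydrogenase and cyclohydrolase that turns the methylene into the formyl form. It was at 4.69, 7.42, 5.60 and 8.62 CPM in control and at 7.56, 6.35, 3.42 and 7.96 CPM in cKO. The groups overlapped, with a log2 fold change of −0.058 (95% interval −0.91 to 0.80, adjusted p = 0.978, edgeR) whose interval ended just short of the rise of Aldh1l1. cKO S5, the library with the highest Aldh1l1, held the lowest Mthfd2.

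Mthfd1l (ENSMUSG00000040675, chromosome 10, plus strand, 3973118 to 4167081) encodes the mitochondrial ligase that releases formate. It was at 0.570, 1.97, 3.79 and 4.45 CPM in control and at 2.60, 2.0, 4.22 and 3.55 CPM in cKO. Control S1, with 9 counts, was the lowest of the 8 libraries. The log2 fold change was 0.19 with a 95% interval of −1.18 to 1.57 (adjusted p = 0.951, edgeR). A doubling or a halving of Mthfd1l was thus not separable from no change.

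Among the 7 enzymes other than Aldh1l1, then, 0 passed the threshold by edgeR, with 0 at an unadjusted p under 0.05 as well. Over all tested genes 9.81% had such a p, 5.03% with a higher and 4.77% with a lower level in cKO. DESeq2, limma-voom and limma on the FPKM values also called 0 of the 7. Their log2 fold changes had mixed signs, 5 positive and 2 negative, and the signs of Mthfd1, Mthfd1l, Mthfd2 and Shmt1 changed between settings. CPM of the groups did not overlap in 1 of the 8 genes, against 6.34% of all tested genes.

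**Figure D2:**
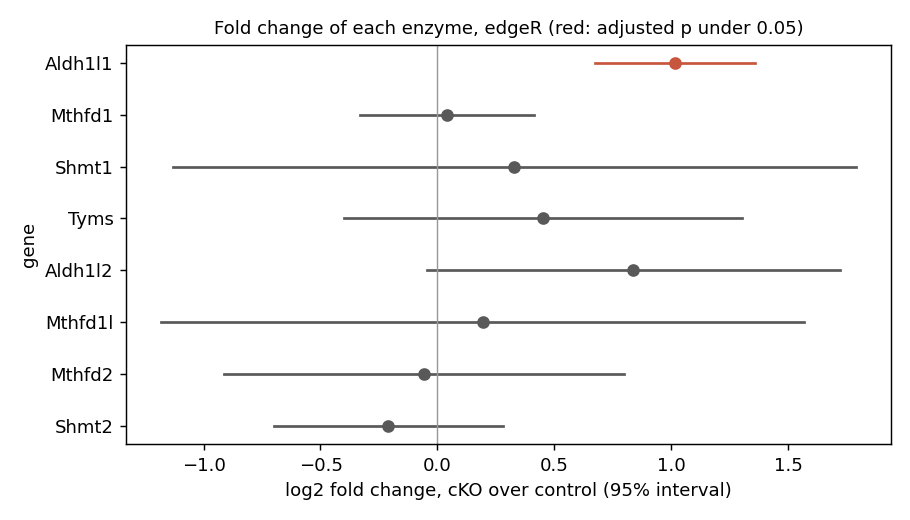
Log2 fold change of cKO over control for the 8 enzymes, with the 95% interval of the edgeR fit as a line. Aldh1l1, in red, has an interval of 0.67 to 1.36, and the 7 others have intervals that include 0, narrow for Mthfd1 and wide for Shmt1 and Mthfd1l.

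Whether Aldh1l1 changed more than each other enzyme was tested on the ratio of the pair within a library, a value that hardly depends on how the libraries are scaled. Each ratio was the difference of log2(CPM + 0.5), compared by an exact 2-sided permutation test whose smallest possible p is 0.0286 with 4 against 4 libraries. For these 7 comparisons the p-values are unadjusted. The ratio to Mthfd1 was 1.53 ± 0.20 (SD, n = 4) in control and 2.49 ± 0.38 (SD, n = 4) in cKO, a difference of 0.96 (exact p = 0.0286). The ratio to Shmt2 was 1.92 ± 0.40 in control and 3.09 ± 0.20 in cKO (SD, n = 4 each), a difference of 1.16 (exact p = 0.0286). For both, all 4 cKO libraries lay above all 4 control libraries, so relative to the other abundant enzymes Aldh1l1 was higher in every cKO library.

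The 5 scarce enzymes gave less. The ratio to Mthfd2 was higher by 1.08 in cKO (exact p = 0.0571), and the highest control value, 4.87, lay just above the lowest cKO value, 4.86. The differences were 0.65 for Mthfd1l (exact p = 0.286), 0.63 for Shmt1 (exact p = 0.400) and 0.45 for Tyms (exact p = 0.343), each with overlapping groups. These values moved with single libraries: leaving each out in turn gave 0.36 to 1.1 for Mthfd1l, 0.30 to 1.06 for Shmt1, 0.11 to 0.71 for Tyms and 0.72 to 1.27 for Mthfd2. The smallest difference was that to Aldh1l2, 0.22 (exact p = 0.571), where the ratio was 4.29 to 5.41 in control and 4.32 to 5.48 in cKO, and leaving out single libraries gave 0.038 to 0.45. The change of Aldh1l1 thus differed from that of Mthfd1 and Shmt2 at the smallest p the test allows, without adjustment for the 7 comparisons. The rise of Aldh1l1, already known, enters all of these ratios, so they are not independent evidence of it. The change of Aldh1l1 was not separable from that of Aldh1l2, Tyms, Shmt1, Mthfd1l or, narrowly, Mthfd2 by this test.

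**Figure D3:**
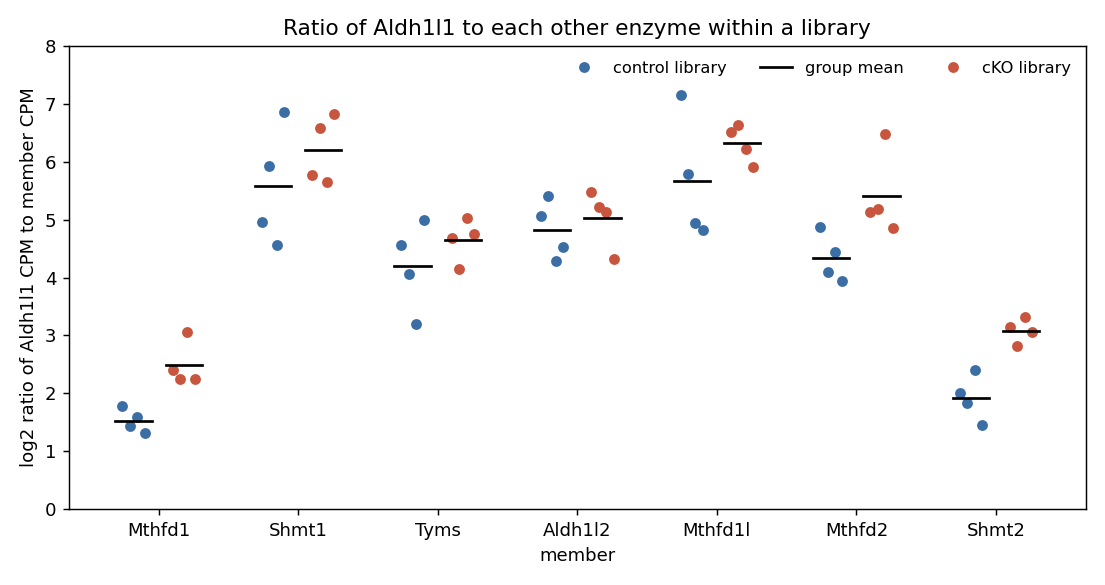
Log2 ratio of Aldh1l1 to each other enzyme within a library, with controls in blue, cKO in red and bars at group means. For Mthfd1 and Shmt2 every cKO library lies above every control library, and for Aldh1l2 the groups cover the same range.

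The wider pathway was described through 8 lists holding 103 genes, of which 89 were tested. By edgeR 0 of the 89 passed the threshold, where 0.318% of all tested genes passed it. At an unadjusted p under 0.05 edgeR gave 9 (3 higher and 6 lower), where 9.81% of all tested genes had such a p. A positive log2 fold change was found for 45, or 50.6%, against 48.4% of all tested genes. The lists differed in this. Positive were 6 of 8 tested genes of folate uptake, retention and reduction and 7 of 14 other folate-dependent enzymes. It was 7 of 10 for the methionine cycle and transsulfuration, 5 of 6 for serine and 5 of 10 for purine and thymidylate synthesis. For ATF4 targets it was 7 of 11, for aldehyde dehydrogenases 6 of 13 and for S phase and proliferation 2 of 17. The pooled values thus do not describe each list. CPM of the groups did not overlap in 5 of the 89, against 6.34% of all tested genes. With DESeq2 1 of the 89 was called, Aldh5a1, where 384 genes were called in all. The median log2 fold change of the 89 was 0.0088, against −0.017 over all genes tested.

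The list of folate uptake, retention and reduction had the highest median of the 8, 0.55, with 6 of 8 tested genes positive and 0 past the threshold. Slc46a1, the proton-coupled folate transporter, was at 14.4, 17.1, 9.83 and 15.9 CPM in control and at 16.8, 36.0, 24.0 and 23.0 CPM in cKO. Only cKO S3 lay inside the control range. The log2 fold change of Slc46a1 was 0.80 (SE 0.28, adjusted p = 0.353, edgeR). Slc19a1, the reduced folate carrier, was at 9.63, 10.99, 4.94 and 5.12 CPM in the controls and at 13.9, 12.7, 19.6 and 10.5 CPM in cKO, in the same order of libraries, and here cKO S8 lay inside the control range. Slc19a1 had a log2 fold change of 0.89 (SE 0.35, adjusted p = 0.419, edgeR). Folr2, a folate receptor, had a log2 fold change of −1.15 and Ggh, which trims the polyglutamate tail of folates, one of −0.11, with adjusted p of 0.5996 and 0.949 from edgeR. Ggh turned positive in 3 of the fits with all libraries. Folr1 was not tested, with 3 counts in all 8 libraries together.

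Of the other folate-dependent enzymes, 14 of 16 were tested, 7 with a positive and 7 with a negative log2 fold change (median 0.020), and 0 passed the threshold by edgeR. Mthfd2l, a further mitochondrial dehydrogenase, was at 2.22 to 4.55 CPM in control and 4.75 to 6.89 CPM in cKO. The groups did not overlap, as in 6.34% of all tested genes, and Mthfd2l had a log2 fold change of 0.72 (adjusted p = 0.629, edgeR). Sardh, which demethylates sarcosine, had one of 0.29. Pipox, a peroxisomal sarcosine oxidase, had a log2 fold change of −0.90 (adjusted p = 0.428, edgeR), and Atic, which uses the formyl form in purine synthesis, one of −0.60 (adjusted p = 0.546, edgeR). The groups of both overlapped.

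Among 10 tested genes of the methionine cycle and transsulfuration, 0 passed the threshold by edgeR and the median log2 fold change was 0.087. Ahcy, which clears the homocysteine precursor, had a log2 fold change of 0.85 and Mmachc, a cobalamin-handling protein, one of −0.61, with adjusted p of 0.696 and 0.611 from edgeR. Mat2b, a regulatory subunit for making S-adenosylmethionine, and Cbs, the first enzyme of transsulfuration, had log2 fold changes of 0.28 and −0.14, the latter with a sign that changed when control S2 was left out. Of 6 serine genes 0 passed the threshold by edgeR, with a median of 0.22. Slc1a4, a neutral amino acid transporter that carries serine, was at 180 to 251 CPM in control and 223 to 345 CPM in cKO, a log2 fold change of 0.38 (adjusted p = 0.510, edgeR). Psph, the last enzyme of serine synthesis, had a log2 fold change of 0.55 (adjusted p = 0.587, edgeR), and Slc1a5 was near the limit of detection with 1.10 CPM ± 0.908 (SD, n = 4) in control.

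In purine and thymidylate synthesis 10 of 11 genes were tested, 5 with each sign, with a median of −0.0088 and 0 past the threshold by edgeR. Adss, which acts in adenylate synthesis, was at 22.9 to 36.6 CPM in control and 13.0 to 22.8 CPM in cKO. The groups did not overlap, as in 6.34% of all tested genes, and Adss had a log2 fold change of −0.66 (adjusted p = 0.423, edgeR). Gmps, which makes guanylate, had one of 0.26, Dctd, the deoxycytidylate deaminase, one of 0.41 and Impdh1, also of guanylate synthesis, one of −1.09, each with overlapping groups. Targets of ATF4, a transcription factor that raises mitochondrial one-carbon enzymes under amino acid or mitochondrial stress, had a median of 0.075 over 11 tested genes, 0 of them past the threshold by edgeR. Among them Slc7a11 and Slc3a2, subunits of the cystine transporter, had log2 fold changes of 0.29 and 0.31, while Vldlr, a lipoprotein receptor, and Asns, the asparagine synthetase, had −0.75 and −1.28 (adjusted p = 0.449 and 0.566, edgeR). Asns was at 11.5 CPM in control S7 and at 1.20 to 2.80 CPM in the other controls, and without control S7 its log2 fold change was −0.21.

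ALDH1L1 also belongs to the aldehyde dehydrogenase family by sequence. Of 17 other family members 13 were tested, 6 with a positive and 7 with a negative log2 fold change (median −0.10), and 0 passed the threshold by edgeR. Aldh1a1, a retinaldehyde dehydrogenase, was at 28.8, 23.4, 11.1 and 12.5 CPM in control and at 33.4, 52.9, 62.3 and 25.1 CPM in cKO. Its log2 fold change of 1.20 (SE 0.35) was larger than that of Aldh1l1, but cKO S8 lay below control S1 and the adjusted p was 0.247 (edgeR). Aldh5a1, the succinic semialdehyde dehydrogenase that ends GABA breakdown, was at 219, 195, 217 and 155 CPM in the controls and at 137, 117, 115 and 155 CPM in cKO, in the same order. For Aldh5a1 the log2 fold change was −0.58 (SE 0.17) with an adjusted p of 0.219 by edgeR and 0.0416 by DESeq2, and control S7 and cKO S8 stood at nearly the same level. Aldh4a1 and Aldh3a2 had log2 fold changes of 0.37 and −0.19.

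**Figure D4:**
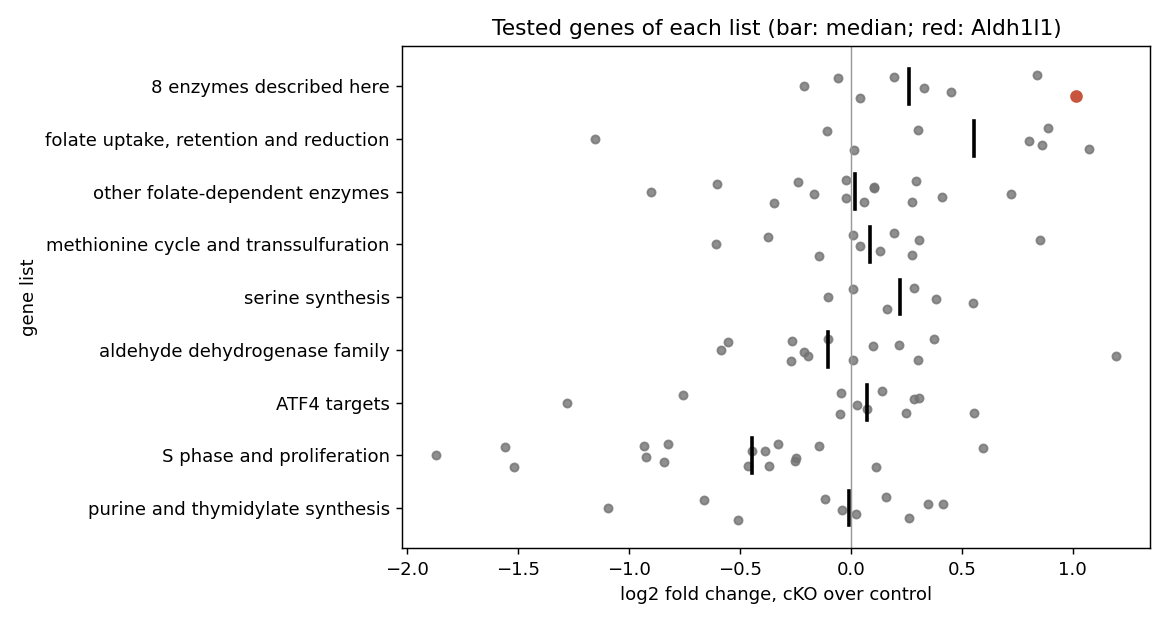
Log2 fold change of cKO over control for each tested gene of the 8 enzymes and of the 8 pathway lists, with a bar at each list's median and Aldh1l1 in red. Medians range from −0.44 for S phase and proliferation to 0.55 for folate uptake, retention and reduction, and no gene of the 8 pathway lists passed the threshold by edgeR.

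Markers of other cells were measured beside the rise of Aldh1l1. The level of the 16 astrocyte markers, as mean log2 CPM, was 9.96 ± 0.24 (SD, n = 4) in control and 10.0 ± 0.096 (SD, n = 4) in cKO. Their median log2 fold change was −0.0019 and 1 of the 16, Aqp4, passed the threshold by edgeR with a rise of 1.09. Relative to this marker level in the same library, Aldh1l1 was higher in cKO by 0.95 (exact 2-sided permutation p = 0.0286, a comparison added after the data were seen), with no overlap between groups. Oligodendrocyte markers summed to 1572 to 3207 CPM in control and 1055 to 2557 CPM in cKO, and all 12 had a negative log2 fold change, with 0 past the threshold by edgeR. Precursor (OPC) markers summed to 600 to 1491 CPM and 661 to 817 CPM, endothelial markers to 44.3 to 73.6 CPM and 24.3 to 57.6 CPM, and neuronal markers to 63.4 to 91.4 CPM and 40.0 to 77.2 CPM, in the same order of groups. Fibroblast markers summed to 124 to 614 CPM and 78.8 to 182 CPM, and all 6 had a negative log2 fold change. Mean log2 CPM was higher in cKO for microglial (by 0.21), Schwann cell (0.58), mural (0.089) and ependymal (0.023) markers. For erythroid markers the difference was −0.69. The part of these differences in the pathway genes was not tested. Des, of the mural list, was at 0 in all libraries. The smallest exact permutation p over 11 marker levels was 0.0857. In bulk RNA, fewer cells of a type and less RNA per cell cannot be told apart.

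The genes around Aldh1l1 were examined because both transgenes are named for it and cre is present in cKO animals only. Within 500 kb of Aldh1l1 6 other genes were tested. By edgeR 0 passed the threshold, 2 had an unadjusted p under 0.05 (Slc41a3 and Iqsec1), where 9.81% of all tested genes had one, and 4 had a positive log2 fold change. Slc41a3 (chromosome 6, 90604725 to 90646412, plus strand), a magnesium transporter gene that begins 4.52 kb past the end of Aldh1l1, was at 12.1, 17.5, 13.0 and 12 CPM in control and at 19.9, 20.5, 36.4 and 22.3 CPM in cKO. The groups did not overlap, as in 6.34% of all tested genes, and cKO S5 was highest, as it was for Aldh1l1. Its log2 fold change was 0.86 (SE 0.27, unadjusted p = 0.00693, adjusted p = 0.271, edgeR), and 0.62 without cKO S5.

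Iqsec1, the next gene at a gap of 55.9 kb and on the opposite strand, had a log2 fold change of 0.46 (SE 0.20, adjusted p = 0.466, edgeR). It ranged from 88.8 to 165 CPM in control and from 144 to 177 CPM in cKO, and on the deposited FPKM values its log2 fold change was −0.022 and −0.023. Klf15, a transcription factor gene 11.2 kb before Aldh1l1, had a log2 fold change of −0.071, with a sign that changed between settings. Further before it, Cfap100 and Zxdc had −0.46 and 0.028, and Nup210, 413 kb past it, had 0.28. The loss of Kir4.1 and the presence of the cre transgene cannot be told apart in this design, nor can reads of Slc41a3 and of any copy of its exons in that transgene. Transcripts of the reporter and of cre were not analysed here. In the annotation used Aldh1l1 overlaps 3 other transcribed units, of which Gm15756, antisense to it, had 40 counts in all 8 libraries together against 1861 or more for Aldh1l1 in each.

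**Figure D5:**
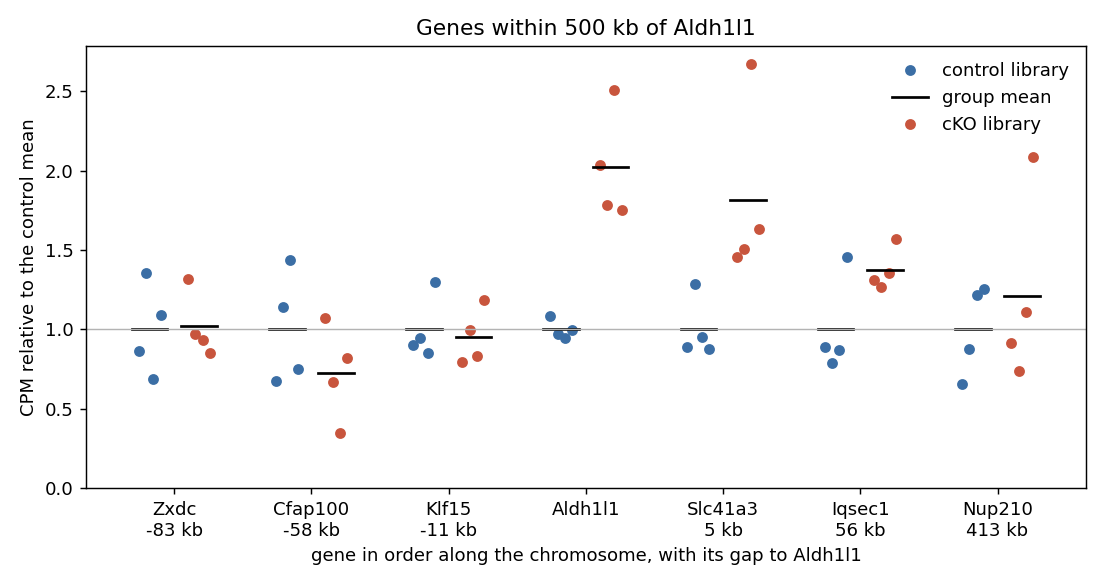
CPM relative to the control mean for Aldh1l1 and the tested genes within 500 kb, in order along the chromosome with the gap in kb, controls in blue and cKO in red. Aldh1l1 and Slc41a3, which follows it directly, are the genes of this window whose cKO libraries all lie above all controls.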

How the data were processed

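RNA from GFP-sorted spinal cord astrocytes was sequenced in 8 libraries. Groups and replicate numbers came from the sample titles. The authors deposited raw counts per Ensembl gene for each library. The submitters' processing notes list HTSeq 0.6.1p1, TopHat2 2.0.11, Bowtie2 2.2.3, Cufflinks 2.2.1, DESeq2 1.14.1 and the build GRCm38. The 5 summary lines of each count table, 56.4% to 61.7% of reads, were left out. They hold reads shared by overlapping genes and reads without a unique position, so genes with such stretches are undercounted. FPKM values were also deposited by the authors. By correlation over 11824 genes, 3 of 8 FPKM columns matched the count table of their own name and the other 5 matched another library of the same genotype, so FPKM was used by group. Whether the count tables or the FPKM columns carry the wrong library numbers is not known. The groups are the same either way, and library numbers in the text are those of the count tables. Per the file headers, the authors' deposited comparison gives group means of scaled counts as a signal, log2 fold changes, their standard errors and Wald statistics (scores), and p-values. For each of the 8 enzymes the deposited log2 fold change is smaller in size than those group means alone would give.

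Counts were tested with edgeR 4.0.16 (TMM, filterByExpr, quasi-likelihood test, Benjamini-Hochberg over 14757 genes, threshold 0.05). Standard errors were taken from the F statistic and intervals are at 95%. The test was checked on simulated data. CPM use TMM library sizes, and per-kilobase levels use merged exons of GENCODE mouse release M21 on GRCm38. Mean log2 CPM used a prior count of 2. Symbols were matched for 37607 of 39179 identifiers. DESeq2 1.42.0 and limma 3.58.1 served as alternatives. R 4.3.3 and Python 3.11.15 were used.

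The enzymes, lists and tests were chosen with earlier results of these data known. Named were the 8 enzymes, Kcnj10, list genes past the threshold, the 2 higher and 2 lower genes of smallest p in each list with a mean of at least 1 CPM, tested genes within 500 kb of Aldh1l1, and the 5 genes of at least 10 CPM closest in pattern to Aldh1l1. Pseudogenes, predicted genes, Xist, Tsix and Y-linked transcripts took no place among the last. Other genes were chosen after their values were seen. Aqp4, Smcr8, D10Wsu102e and Gm15756 are such genes.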

Additional observations from a re-analysis of the deposited data

How the results depend on the processing

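No paired analysis was possible because the replicate numbers of the groups do not recur between them. The Aldh1l1 log2 fold change was 0.90 to 1.13 over 18 alternatives, and 0.90 to 1.08 when each library was left out. Its call was lost with FPKM at pseudocounts of 0.1 (0.97) and 1 (0.96), and without control S2, control S6 or cKO S4. The cause was not tested. The count of changed genes was 47, and it was 87 with a filter of at least 1 count in any library, 84 with at least 10 counts in every library, 384 with DESeq2, 28 with Xist as a covariate, 11 and 7 on FPKM at the low and high pseudocount, and 4 to 45 when each library was left out. Scaling by library totals alone called 48 higher and 14 lower genes, against 30 and 17.

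Leaving out a library gave differences in the ratio of Aldh1l1 of 0.77 to 1.04 to Mthfd1, 1.0 to 1.32 to Shmt2 and 0.85 to 1.05 to the astrocyte markers, where 3 against 4 libraries cannot give an exact p under 0.0571. With a pseudocount of 2 CPM the ratio to Mthfd2 differed by 1.05 with an exact permutation p of 0.0286. On FPKM, Tyms ranked 4 and Mthfd2 ranked 5 by control level, the reverse of the order per kilobase of exons.

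Signs changed for estimates near 0. Mthfd2 was 0.043 with library totals and 0.0057 and 0.015 on FPKM (low and high pseudocount, as below), and −0.19 to 0.15 when each library was left out. In the same fits Shmt2 stayed negative, at −0.37 to −0.023. Mthfd1 ranged from −0.0087 to 0.12, Mthfd1l from −0.14 to 0.56 and Shmt1 from −0.066 to 0.72. Mthfd1l was −0.087 on FPKM at the high pseudocount and Shmt1 −0.067 with Xist as a covariate. Ggh was 0.028 with limma-voom, 0.016 and 0.0086 on FPKM, and −0.33 to 0.14 when each library was left out. Slc1a5 and Zxdc were 0.054 and −0.061 with Xist as a covariate, and −1.18 to 0.39 and −0.11 to 0.21 when each library was left out. Klf15 was 0.018 with library totals. When each library was left out, Klf15 ranged from −0.19 to 0.086, Cbs from −0.32 to 0.017 and Nup210 from −0.12 to 0.45. Nup210 was −0.33 and −0.30 and Iqsec1 −0.022 and −0.023 on FPKM.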

Other observations

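The genes whose pattern over the 8 libraries lay closest to that of Aldh1l1 were Spag5, Nxt2, Grik3, Rdh13 and Inhba. Among the other enzymes described here only Mthfd1 and Shmt2 reached the mean of 10 CPM required, so the rest could not take a place. Closeness was the root mean square difference of log2 CPM, each gene centred on its own mean, over 7624 genes with a mean of at least 10 CPM. It was 0.157, 0.161, 0.174, 0.175 and 0.185 for these 5, where Aldh1l1 itself varied by 0.524. With libraries ordered S1, S2, S6, S7 and S3, S4, S5, S8, Spag5, a gene of the mitotic spindle, was at 61.8, 62.6, 51.2 and 60.1 CPM in control and at 90.0, 107, 133 and 90.5 CPM in cKO. Grik3, a kainate receptor subunit, was at 31.2 CPM ± 2.52 and 53.4 CPM ± 14.6 (SD, n = 4 each). Inhba, a subunit of activin, was at 7.47 CPM ± 1.1 and 13.2 CPM ± 3.73 (SD, n = 4 each), and Rdh13, a retinol dehydrogenase, at 13.7 CPM ± 2.46 and 25.0 CPM ± 2.62 (SD, n = 4 each). The likeness covers the step between the groups, so the difference of these 5 between control and cKO follows from how they were chosen and is given without a test.

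Among the same genes Aldh1l2 would rank 1439 by this closeness and Mthfd1 would rank 2758, and the other 5 enzymes lay farther away. Except for Mthfd1 and Shmt2 these enzymes were below the level required of the genes they are ranked against. When deviations were taken within each group, the closest genes were Nudcd3, Clk2, Snhg20, Krba1 and Acat1, at 0.054 to 0.071, with Aldh1l1 varying by 0.156.

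Cytosolic and mitochondrial counterparts stood in different ratios. Per kilobase, Aldh1l1 was 34.9 to 83.6 times as abundant as Aldh1l2 in control libraries and 34.6 to 80.2 times in cKO libraries. Mthfd1 was 11.4 to 76.9 times as abundant as Mthfd1l in control and 9.88 to 25.9 times in cKO. For serine hydroxymethyltransferase the mitochondrial gene was the higher, with Shmt2 6.04 to 89.3 times as abundant as Shmt1 in control and 6.68 to 21.7 times in cKO.

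The deposited FPKM of Shmt1 was 2.95 ± 2.41 in control and 7.27 ± 11.2 in cKO (SD, n = 4 each), while its counts gave 2.97 CPM ± 2.07 and 3.74 CPM ± 2.28 (SD, n = 4 each), so the wider spread of the FPKM was in cKO.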
